A study of Brassica napus with 15 samples.

Results

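The step from 36 to 72 h after imbibition (hai) in germinating rapeseed (Brassica napus) was described from 6 of the 15 libraries of the series. Its members are the 101040 coding genes of a table of 105276 genes, each read in 3 libraries at 72 hai and 3 libraries at 36 hai. Both times held the winter accessions C129, which germinated fastest in the study, C033, which was intermediate, and C032, which was slowest, and libraries of 1 accession were compared as a pair. All material was germinated on water at 20 °C, and the sources describe the vessels as kept in the dark at both times. Each library was made from total RNA of 3 pooled biological replicates of 30 seeds, so that 1 accession at 1 time is 1 value with no error, and the accessions serve as the replicates. Whether seeds without a radicle were part of the pools at 36 hai is not given in the sources used here. In the germination assay of the paper, germination was incomplete at 36 hai and lower in C032 than in C129 and C033.

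At the end of germination the embryo turns from using seed reserves to building green cotyledons. The plastids of the embryo then form thylakoids, the membranes that carry photosystems I and II, the cytochrome b6f complex, the NADH dehydrogenase-like (NDH) complex and ATP synthase. Most proteins of these complexes are made from nuclear genes and imported. The others are encoded in the plastid genome, which is read by a bacterial-type RNA polymerase, whose core subunits are themselves plastid encoded, and by a phage-type polymerase from the nucleus. Light normally completes this change. Chlorophyll was not measured in these libraries, and the term greening is used here only for the genes concerned.

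The TPM (transcripts per kilobase, scaled to a fixed total per library) of coding genes summed to between 817949 and 896897 at 72 hai, against 643395 to 904932 at 36 hai. C129 was at 878465 at 72 hai and 904932 at 36 hai, whereas the coding total was lower at 36 hai in C033 (643395) and C032 (702450). Non-coding genes held 7.25%, 11.1% and 5.82% of coverage in C129, C033 and C032 at 72 hai. At 36 hai their shares were 5.83%, 24.1% and 19.5%, so that the make-up of the libraries differed among accessions. The depth of coding genes, as coverage times length in reads of 100 bp, was 30.1 to 40.4 M reads at 72 hai and 19.8 to 41.7 M reads at 36 hai (M, the prefix mega). Changes were tested with limma on log2(TPM + 1) in the 53233 genes that reached 1 TPM in 3 or more of the 15 libraries, with time and accession as terms. A gene counted as called where its log2 change was beyond 1 and its p, adjusted by Benjamini-Hochberg, was under 0.05. A log2 change on this scale understates the change of low genes. By this rule 17.1% of the tested genes (9088) rose and 4.82% (2567) fell at 72 hai. Of the called genes, 78.0% had risen, and this split moved with the scaling of the libraries. Bringing the coding total of every library to one value gave 8096 rising and 4043 falling genes (66.7% rising), and median-of-ratios scaling gave 6957 and 3527 (66.4% rising). Over all tested genes the median log2 change was 0.21 with TPM as deposited and 0.06 with either scaling, and list medians are given beside these values.

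Nearly all called genes moved in 1 direction in the 3 accessions. Of 11655 called genes, 11624 had the same sign in each accession, and 5542 of the rising genes (61.0%) and 1183 of the falling genes (46.1%) changed by more than 1 on the log2 scale in every accession. These values chose the genes and are a description. The rising genes held 29.7%, 35.8% and 29.5% of coding TPM in C129, C033 and C032 at 72 hai, against 9.71%, 13.3% and 11.2% at 36 hai. For falling genes the shares were 4.61%, 4.13% and 5.09% at 72 hai, against 14.5%, 13.6% and 14.6% at 36 hai. With TPM as deposited, 4541 of the rising genes changed most in C032, 2658 in C033 and 1889 in C129. Of the falling genes 1662 changed most in C129, 532 in C032 and 373 in C033. Once coding totals were made equal, the median log2 change of the rising genes was 1.42 for both C129 and C033 and 1.51 for C032. For the falling genes the medians in C129, C033 and C032 were −1.54, −1.28 and −1.14 with TPM as deposited. They were −1.52, −1.64 and −1.48 with equal totals, so that the order of the accessions moved with the scaling.

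Gene names rest on the Arabidopsis matches that a supplementary table of the study gives for 3060 genes, of which 1841 were tested. That table was limited to genes that changed during germination in C129 or C033 in these same libraries. A list median beside that of all tested genes is therefore a description. Of that table, mainly genes matched to plastid or mitochondrial loci or to the end of Arabidopsis chromosome 5 were at hand. Of its tested genes 24.1% rose and 2.23% fell, which is the background for the lists below. The 17 lists hold 402 rapeseed genes matched to 212 Arabidopsis loci. Of these genes, 61 stayed under the minimum level and were not tested. Gene functions are given as known from Arabidopsis.

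Genes matched to plastid loci were higher at 72 than at 36 hai. They lie on nuclear scaffolds of the assembly and several share a match to 1 plastid locus. Their sequences were not compared here, and reads from the plastid itself may have been assigned to them, so that the value of a single copy is uncertain. For this reason the copies of a locus were also summed. All 116 such genes were tested, and 82 rose and none fell. Their summed level was 12610, 29199 and 29004 TPM in C129, C033 and C032 at 72 hai, against 8661, 5771 and 7585 TPM at 36 hai. The sums did not overlap between the times, and the ratio of the times was smallest in C129. In bulk RNA, fewer cells of a type and less RNA per cell cannot be told apart, and the number of plastids per cell was not measured. How far the library kit (TruSeq) captured plastid RNA, and whether this differed among libraries, was not tested.

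Photosystem genes rose together. The list holds 33 genes of 11 loci for core subunits of photosystem I (psaA, psaB, psaC, psaI) and photosystem II (psbB, psbC, psbD, psbE, psbH) and for the assembly factors ycf3 and ycf4. Of these, 24 rose and none fell, with a median log2 change of 1.70 beside 0.21 for all tested genes (1.49 beside 0.06 after rescaling). Their summed level was 2778, 8278 and 5108 TPM in C129, C033 and C032 at 72 hai, against 1004, 1696 and 1982 TPM at 36 hai. Every library at 72 hai was above every library at 36 hai, as was the case for 27.7% of all tested genes one by one. The psaA copy BnaC04g15570D, for the photosystem I reaction centre, had 195, 612 and 319 TPM at 72 hai and 62.8, 132 and 126 TPM at 36 hai (log2 change 1.72 ± 0.52 SE, limma adjusted p = 0.0197). psbB, for a core antenna protein of photosystem II, had the largest called change of the list in its copy BnaA06g19430D, with 72.9, 149 and 89.0 TPM at 72 hai against 13.1, 21.4 and 19.9 TPM at 36 hai (2.42 ± 0.46, adjusted p = 0.00129). With copies summed, each of 10 distinct photosystem loci was higher at 72 hai in each accession, by 1.73-fold to 5.42-fold in C129, 3.29-fold to 6.92-fold in C033 and 1.78-fold to 4.33-fold in C032.

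**Figure D1:**
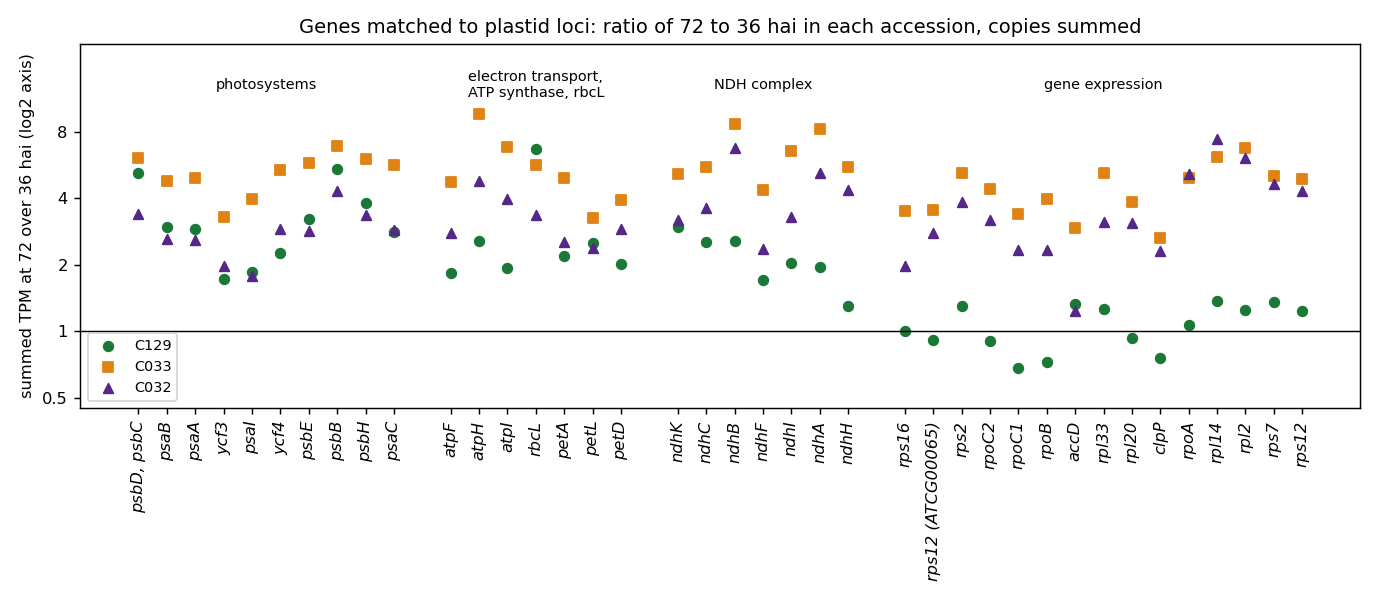
Ratio of summed TPM at 72 over 36 hai (log2 axis) for plastid-matched loci in C129 (circles), C033 (squares) and C032 (triangles), with the copies of a locus summed, 1 library per time, and petB, ccsA and another locus not drawn. Photosystem loci lie above 1 in every accession, whereas in the gene expression group C129 lies near 1 and C033 and C032 lie above it. Over all distinct loci of that group with a ratio, drawn or not, the medians were 1.07 in C129, 4.40 in C033 and 3.16 in C032.

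Electron transport, ATP synthase and Rubisco genes followed the same direction. Of 16 genes matched to petA, petB, petD and petL of the cytochrome b6f complex, atpF, atpH and atpI of ATP synthase and rbcL, the large subunit of the carbon-fixing enzyme Rubisco, 13 rose and none fell (median log2 change 1.54). Their sum was 1161, 3351 and 2262 TPM at 72 hai in C129, C033 and C032, against 419, 572 and 660 TPM at 36 hai. The atpH gene BnaA01g34190D, for the membrane ring of ATP synthase, had 345, 1097 and 765 TPM at 72 hai and 134, 114 and 160 TPM at 36 hai, with no overlap (2.29 ± 0.60, limma adjusted p = 0.00938). The rbcL gene BnaA01g34300D had 221, 689 and 307 TPM at 72 hai and 33.01, 121 and 91.1 TPM at 36 hai. Its libraries did not overlap, but it did not pass the test (adjusted p = 0.122). The petB gene BnaC07g05360D had 49.1, 125 and 80.9 TPM at 72 hai and was listed at 0 in all 3 libraries at 36 hai. An exact 0 in these data can be a failed estimate, since BnaC09g26890D was listed at 0 in C129 at 36 hai beside 2140 TPM in C033 and 1580 TPM in C032, so that the zeros are uncertain.

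The NDH complex, which returns electrons to the plastoquinone pool of the thylakoid, had the highest share of called genes. Of 26 genes for ndhA, ndhB, ndhC, ndhF, ndhH, ndhI and ndhK, 25 rose, with a median log2 change of 1.77. The list summed to 1125, 2566 and 2672 TPM at 72 hai in C129, C033 and C032, against 615, 404 and 605 TPM at 36 hai. The ndhB copy BnaC09g16580D had 94.5, 175 and 221 TPM at 72 hai and 36.9, 20.2 and 32.6 TPM at 36 hai (2.37 ± 0.46, limma adjusted p = 0.00124). All 3 values at 72 hai were above all values at 36 hai, and the 3 ndhB copies had nearly the same values.

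The plastid gene expression list differed in size of change among accessions. It holds 41 genes for the core subunits of the bacterial-type RNA polymerase (rpoA, rpoB, rpoC1, rpoC2), for ribosomal proteins and for clpP, accD and ccsA, a protease subunit, a carboxylase subunit of fatty acid synthesis and a factor of cytochrome c assembly. Of these, 20 rose and none fell, and the median log2 change was 1.54. The called genes included copies of rpoA and of the ribosomal protein genes rps7, rps12, rpl2, rpl14 and rpl33, and none of the copies of rpoB, rpoC1, rpoC2, clpP and accD was called. The sum was 15004 TPM in C033 and 18962 TPM in C032 at 72 hai, against 3099 and 4339 TPM at 36 hai. In C129 it was 7545 TPM at 72 hai and 6623 TPM at 36 hai, so that C129 at 36 hai held 87.8% of its own level at 72 hai, C033 20.7% and C032 22.9%. As ratios of 72 to 36 hai these are 1.14, 4.84 and 4.37, and with coding totals made equal the ratios were 1.17, 3.81 and 3.42. With copies summed, 7 of 17 distinct loci were lower at 72 than at 36 hai in C129, among them rpoB, with 158 TPM at 72 hai and 217 TPM at 36 hai. The same locus had 437 TPM in C033 and 510 TPM in C032 at 72 hai, against 110 and 218 TPM at 36 hai. The rpl14 copy BnaA01g34140D, for a protein of the large ribosomal subunit, had 315, 479.9 and 678 TPM at 72 hai and 227, 75.2 and 88.2 TPM at 36 hai (2.02 ± 0.43, limma adjusted p = 0.00198), with no overlap between the times. With 1 library per accession and time, the difference between C129 and the other accessions has no test.

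The ratio of the photosystem sum to the gene expression sum also depended on the accession. It was 0.37 at 72 hai and 0.15 at 36 hai in C129. In C033 it was 0.55 at both times, and in C032 it was 0.27 at 72 hai and 0.46 at 36 hai. Both sums come from 1 library, so the ratio does not depend on its scaling.

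The number of called plastid-matched genes depended on the libraries used and their scaling. Without C129, 6 photosystem genes, 4 of the electron transport list, 25 of the NDH list and 30 of the gene expression list were called. Without C033 the 4 lists had 20, 13, 18 and 5 called genes, in the same order, and without C032 they had 10, 1, 2 and 0. Without accession as a term (no replicate block) they had 7, 4, 7 and 7. With coding totals made equal they had 17, 7, 20 and 18, and with median-of-ratios scaling 17, 5, 20 and 18. Each list median stayed positive under every alternative that could test it, between 1.16 and 2.17.

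Plastid-matched levels did not climb steadily before 36 hai. The gene expression sum was 6795 TPM in dry C032 seeds and 2573 and 1955 TPM in dry seeds of C129 and C033. At 2 hai it was 7687 TPM in C129, 1611 TPM in C033 and 7143 TPM in C032. From 36 hai onward each of the 4 plastid sums went up in each accession, as the plot of summed levels over time shows.

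**Figure D2:**
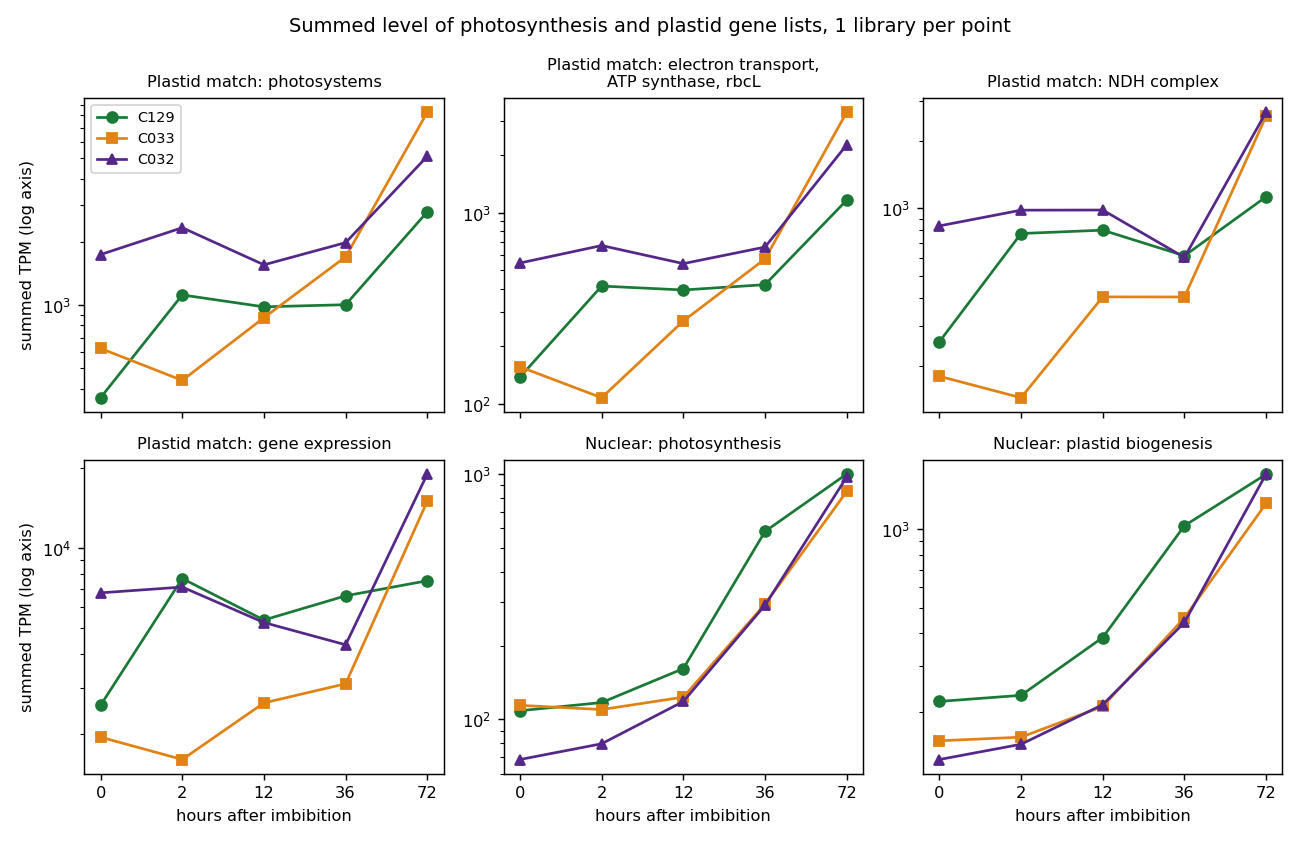
Summed TPM (log axis) of 4 plastid-matched and 2 nuclear gene lists in C129 (circles), C033 (squares) and C032 (triangles) from 0 to 72 h after imbibition, 1 library per point. The plastid sums vary among accessions before 36 hai, while the nuclear photosynthesis sum lies between 68.6 and 161 TPM up to 12 hai and reaches 1001, 849 and 973 TPM at 72 hai.

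Plastid-matched genes lie in runs on the scaffolds. Grouping plastid- or mitochondria-matched genes up to 30 kb apart gave 20 runs with plastid matches alone, on 13 chromosomes or unplaced groups. These runs hold 157 genes, of which 101 have a plastid match and 56 have none. In 19 of the 20 runs the summed TPM was higher at 72 hai in each accession. Of the 56 genes without a plastid match 49 were tested, and 36 rose and none fell. They summed to 29338, 65783 and 37645 TPM at 72 hai in C129, C033 and C032, against 7518, 26027 and 19595 TPM at 36 hai, which was more than the sum of the 116 plastid-matched genes in every library except C129 at 36 hai. The most abundant of them was BnaC09g29230D, with 4241, 10465 and 4912 TPM at 72 hai and 666, 3964 and 2885 TPM at 36 hai (log2 change 1.61 ± 0.38, limma adjusted p = 0.00308). No match for this gene was at hand. The runs were defined after their values were seen.

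The listed nuclear genes of photosynthesis rose in sum in all accessions, with more even calls than the plastid-matched genes. They cover only the matches at hand, so their level was not compared with that of the plastid-matched genes. The list holds 43 genes of 19 loci, and 29 of 41 tested genes rose and none fell. The median log2 change was 1.42, and 1.25 after rescaling. Over the alternatives 23 to 29 genes were called. The summed level was 1001, 849 and 973 TPM at 72 hai in C129, C033 and C032, against 583, 295 and 292 TPM at 36 hai. At 36 hai C129 was thus at 58.3% of its own level at 72 hai, C033 at 34.7% and C032 at 30.0%. As ratios of 72 to 36 hai these are 1.72, 2.88 and 3.33, and with coding totals made equal the ratios were 1.77, 2.27 and 2.61. The accessions thus lay closer together after rescaling.

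Components of the light reactions showed the largest changes of this list. PSAN, a subunit of photosystem I that docks plastocyanin, had 24.4, 21.4 and 19.6 TPM at 72 hai and 1.80, 0.581 and 0.354 TPM at 36 hai in its match BnaC03g50210D (3.65 ± 0.21, limma adjusted p = 1.88e-08). The match of LFNR1, a ferredoxin-NADP reductase, BnaA09g08030D, had 29.8, 30.5 and 23.47 TPM at 72 hai against 2.25, 1.303 and 0.750 TPM at 36 hai (3.61 ± 0.31, adjusted p = 7.04e-07). In both genes the libraries of the 2 times were far apart. With copies summed, LHCB3, a light-harvesting protein of photosystem II, had 11.8, 26.3 and 8.09 TPM at 72 hai and 1.01, 0.428 and 0.229 TPM at 36 hai. NDHN, a nuclear subunit of the NDH complex, had 18.3, 12.0 and 14.7 TPM at 72 hai and 2.33, 0.757 and 0.765 TPM at 36 hai. Both copies of each of these loci rose. The 2 matches of RBCS1A, a gene of the Rubisco small subunit, stayed under the minimum level, with a sum of 1.82, 0 and 0.360 TPM at 72 hai and 1.94, 0.596 and 1.72 TPM at 36 hai. Other genes of the small subunit were not examined here, so these 2 matches do not give the level of the subunit as a whole.

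Of the same list, 3 loci with roles in pigment synthesis are given next, chosen after their values were seen. LIL3:2, which holds geranylgeranyl reductase in the membrane for chlorophyll and tocopherol synthesis, rose in 4 of 5 copies. Its copy BnaAnng07140D had 75.6, 55.6 and 78.8 TPM at 72 hai and 28.3, 9.18 and 10.5 TPM at 36 hai (2.22 ± 0.34, limma adjusted p = 0.000169). YCF54, needed for the cyclase step of chlorophyll synthesis, rose in both copies, and BnaC09g33700D had 65.3, 51.4 and 72.0 TPM at 72 hai against 42.0, 19.1 and 19.6 TPM at 36 hai (1.28 ± 0.26, adjusted p = 0.000950). All 4 matches of LUT2, the lycopene cyclase for lutein, rose, with a sum of 46.8, 35.9 and 52.1 TPM at 72 hai and 13.6, 6.56 and 6.14 TPM at 36 hai. In each of these 3 loci C129 had the highest level at 36 hai.

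Carbon metabolism of the plastid was divided. RPE, an epimerase of the Calvin cycle, rose in 3 of 3 copies, and NADP-dependent malate dehydrogenase, which exports reducing power, rose in 4 of 4. The summed malate dehydrogenase level was 80.0, 86.2 and 82.8 TPM at 72 hai and 18.0, 11.4 and 8.28 TPM at 36 hai. None of 3 copies of ADG1, the small subunit of ADP-glucose pyrophosphorylase in starch synthesis, was called, nor any of 4 copies of the dicarboxylate transporter DIT2.1 or of 3 copies of the thylakoid translocase component HCF106. DIT2.1 had 75.8, 76.3 and 90.1 TPM at 72 hai and 102, 68.5 and 75.0 TPM at 36 hai.

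Genes for building the plastid rose in 29 of 41 cases, and none fell (median log2 change 1.39, 24 to 30 called over the alternatives). Plastid ribosomal proteins of nuclear genes led by level. PRPL19 rose in 4 of 4 copies, PRPL24 in 4 of 4 and PRPL29 in 3 of 3. The PRPL19 match BnaAnng07090D had 133, 106 and 97.8 TPM at 72 hai and 45.3, 22.2 and 12.0 TPM at 36 hai (2.22 ± 0.29, limma adjusted p = 3.51e-05), with no overlap between the times. CIA2, a transcription factor for genes of plastid protein import and plastid ribosomes, rose in 3 of 3 copies, and BnaA02g08300D had 19.1, 11.6 and 12.0 TPM at 72 hai and 1.69, 0.537 and 0.690 TPM at 36 hai (2.96 ± 0.18, adjusted p = 2.64e-08). TIC20-V, a member of the TIC20 family, rose in 3 of 3 copies, and so did DXR in 3 of 3 and HDS in 2 of 2, enzymes of the plastid isoprenoid pathway.

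Both copies of TIG1, a trigger factor-type chaperone, and of APO2 rose as well. Other members of the list were called in part or not at all. Both matches of RIBA1, of riboflavin synthesis, had levels that overlapped, with a sum of 122, 83.9 and 128 TPM at 72 hai and 205, 98.2 and 104 TPM at 36 hai. The division protein FTSZ1-1 was called in 1 of 3 copies and the greening regulator GNC, a GATA transcription factor, in 2 of 5. None of 3 copies of the FtsH-type proteins FTSH11 and FTSHI4 was called.

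Several light signalling genes rose. In the light and clock list 13 of 21 tested genes rose and none fell (median log2 change 1.16, and 0.96 after rescaling), although 7 were called without C129, 8 without C033 and 7 without C032. PHOT2, a blue light receptor for phototropism and chloroplast movement, rose in 6 of 6 copies, with a sum of 92.8, 79.3 and 77.4 TPM at 72 hai and 19.6, 7.76 and 7.83 TPM at 36 hai. RUP1, a repressor of UV-B signalling, rose in 2 of 2 copies, with 6.20, 6.90 and 5.58 TPM at 72 hai and 0.412, 0.450 and 0.452 TPM at 36 hai. Its level was nearly the same in the 3 accessions at either time. COL5, a CONSTANS-like factor, rose in 2 of 2 copies, and its copy BnaA02g35200D had 50.3, 41.4 and 73.6 TPM at 72 hai and 28.5, 14.7 and 16.9 TPM at 36 hai (1.43 ± 0.25, limma adjusted p = 0.000259). UVR8, the UV-B receptor, was called in 1 of 2 copies, and the change of this copy, BnaC03g50490D, was 1.16, but 0.96 with either scaling and 0.98 without C032. The clock-related genes SRR1, LIP1 and PRR3 were not called in any of 4 copies, and PRR3 had 5.65, 3.50 and 4.89 TPM at 72 hai and 9.51, 5.66 and 6.14 TPM at 36 hai.

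**Figure D3:**
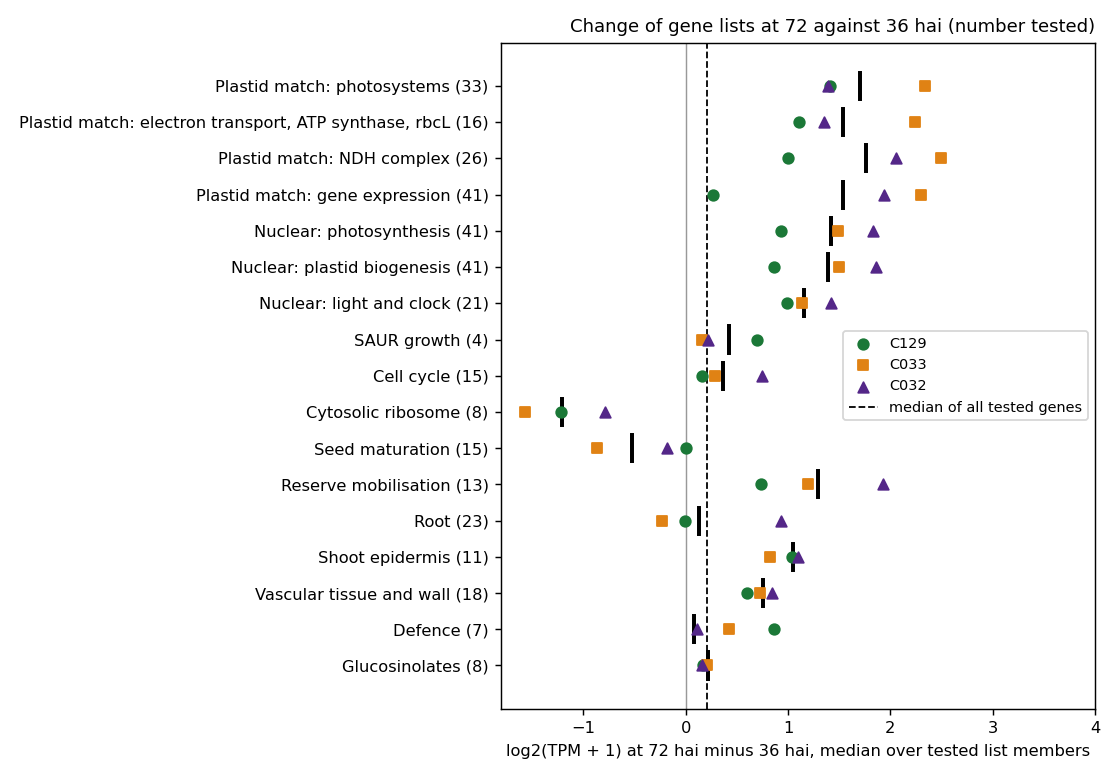
Median difference in log2(TPM + 1) at 72 minus 36 hai for the tested members of 17 gene lists, with black bars for the fitted median and points for C129, C033 and C032. The 7 photosynthesis, plastid and light lists have fitted medians between 1.16 and 1.77, right of the dashed line for all tested genes (0.21), whereas the cytosolic ribosome list lies at −1.21 and the seed maturation list at −0.52.

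Genes for using reserves rose in 7 of 13 tested cases, and none fell (median log2 change 1.29). PCK2, a phosphoenolpyruvate carboxykinase, the enzyme type that leads oil carbon to sugar, rose in 3 of 3 copies, with a sum of 45.7, 31.2 and 40.3 TPM at 72 hai and 10.4, 3.74 and 5.76 TPM at 36 hai. KAT5, a thiolase of beta-oxidation, rose in 2 of 2 copies. AALP, a vacuolar aleurain-like protease, was called in BnaA10g13210D, with 69.3, 34.6 and 47.2 TPM at 72 hai and 18.2, 2.84 and 3.97 TPM at 36 hai (2.79 ± 0.35, limma adjusted p = 2.44e-05). Its more abundant copy BnaA02g06420D had 275, 184 and 227 TPM at 72 hai and 204, 89.9 and 77.2 TPM at 36 hai and was not called. The acyl-CoA oxidase ACX2, the first step of beta-oxidation of long-chain fatty acids, summed to 421 TPM in C129 at 72 hai, against 609 TPM at 36 hai. In C033 it was 340 TPM at 72 hai and 258 TPM at 36 hai, and in C032 475 and 255 TPM. Neither copy was called, and the accessions went in opposite directions.

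Transcripts of seed maturation were nearly gone at both times. The list of storage proteins, oleosins, small heat shock proteins and maturation regulators, which checks for seeds that did not germinate, summed to 3.90, 1.75 and 3.98 TPM at 72 hai in C129, C033 and C032, against 3.64, 25.5 and 18.1 TPM at 36 hai. In dry seeds it was 461, 581 and 469 TPM. The slower accessions C033 and C032 thus held more of this RNA at 36 hai than C129. Of 15 tested members, 1 rose and 1 fell, and at these low levels the number falling depended on the settings, with 8 at a pseudocount of 0.1, 5 at 0.01, 3 with coding totals made equal, 4 without C129 and 0 without C033 or C032. The fall was in BnaA01g17200D, a match of the napin-type albumins SESA1 and SESA4, with 0.174, 0.102 and 0.393 TPM at 72 hai and 0.179, 10.4 and 4.57 TPM at 36 hai (−1.79 ± 0.60, limma adjusted p = 0.0327), and the C129 libraries overlapped. The part of seed RNA at 36 hai in other changes was not tested.

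Root genes fell into a group that rose and a group that was not called. Of 23 tested genes 9 rose and none fell, and the median log2 change was 0.13, 0.00 after rescaling and −0.03 with median-of-ratios scaling. The called genes were every tested copy of 4 loci, which is a description made after the values were seen. TIP2;3, a tonoplast aquaporin of roots, rose in BnaA06g40020D, with 22.7, 11.7 and 9.05 TPM at 72 hai and 0.0746, 0 and 0 TPM at 36 hai (limma adjusted p = 1.80e-08). PRX72, a peroxidase of lignification, rose in 3 of 3 copies, with a sum of 21.7, 15.5 and 25.6 TPM at 72 hai and 0.624, 0.0792 and 0 TPM at 36 hai. PIP2;4, a plasma membrane aquaporin, rose in its 3 tested copies, and its 5 copies summed to 96.4, 32.3 and 89.0 TPM at 72 hai, against 38.7, 14.7 and 15.5 TPM at 36 hai. MYB36, a regulator of the Casparian strip, was called in its 1 tested copy. Genes of root hairs were not called. RBOHC, an NADPH oxidase of root hair growth, had 4.80, 2.92 and 2.67 TPM at 72 hai and 5.54, 3.27 and 2.52 TPM at 36 hai, and the root hair peroxidase PRX73 had 88.4, 29.5 and 58.4 TPM at 72 hai and 105, 55.4 and 28.3 TPM at 36 hai. Fewer root genes were called when C129 (3), C033 (4) or C032 (2) was left out.

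Shoot epidermis and vascular genes rose in part. In the epidermis list 6 of 11 tested genes rose and none fell (median log2 change 1.05). They were copies of CER3, for wax alkanes, of the lipid transfer proteins LTP3 and LTP4, and of SPCH, which starts the stomatal lineage. CER3 copy BnaC02g11200D had 34.9, 28.1 and 33.7 TPM at 72 hai and 11.4, 6.87 and 7.54 TPM at 36 hai (1.82 ± 0.21, limma adjusted p = 7.82e-06). In the list for vascular tissue and walls 8 of 18 tested genes rose and none fell (median 0.76). COMT1, a methyltransferase of lignin monomers, rose in 4 of 4 copies, and BnaA03g11990D had 142, 65.8 and 105 TPM at 72 hai and 20.4, 6.96 and 9.57 TPM at 36 hai (3.05 ± 0.29, adjusted p = 1.38e-06). Matches of FLA12 and EXPA14, of secondary walls and wall loosening, were lower at 72 hai in every accession but were not called. FLA12 had 2.11, 1.62 and 2.54 TPM at 72 hai and 4.18, 2.84 and 4.58 TPM at 36 hai.

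Cell cycle genes were not called with the main settings. None of 15 tested genes rose or fell by the rule, and the median log2 change was 0.36. Of these, 8 were higher at 72 hai in every accession and 1 was lower in every accession. Some missed the rule only by the size of the change. SMC4 had a log2 change of 0.75 (limma adjusted p = 0.0052). The WYR copies had 0.87 and 0.78 (adjusted p = 0.0024 and 0.0039). Called as rising were 3 genes without C129, 2 at a pseudocount of 0.1 and 1 at 0.01. The list summed to 105 TPM in C129 at 72 hai against 126 TPM at 36 hai, to 81.4 TPM in C033 against 70.2 TPM, and to 128 TPM in C032 against 75.5 TPM. RPA70D, a subunit of the single-strand DNA binding protein in replication and repair, had 14.6, 11.0 and 17.3 TPM at 72 hai and 18.3, 10.8 and 11.8 TPM at 36 hai in its most abundant copy BnaC09g05110D (0.07 ± 0.21, limma adjusted p = 0.803).

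Of the remaining lists few members were called. In the cytosolic ribosome list 3 of 8 tested genes fell and none rose (median log2 change −1.21), but 0 were called without C129 or at a pseudocount of 0.01. Its 9 genes are a small part of the family, and every one was listed at 0 in C033 at 72 hai. The fall of the RPL34 match BnaC09g01930D, with 1.97, 0 and 23.8 TPM at 72 hai and 11.9, 4.73 and 54.5 TPM at 36 hai (limma adjusted p = 0.0173), came with overlapping libraries. Among 18 SAUR genes, small auxin-induced proteins of cell growth, 4 were tested, 1 rose and 1 fell. In the defence list the ethylene response factors ERF2, ERF5 and ERF105 rose, 3 of 7 tested genes. ERF105 (BnaC09g27360D) had 16.8, 17.0 and 33.1 TPM at 72 hai and 2.59, 1.49 and 2.83 TPM at 36 hai (2.77 ± 0.20, adjusted p = 1.11e-07). In the glucosinolate list 1 of 8 tested genes rose, a copy of the indolic regulator MYB34.

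The largest changes with a match included regulators outside the lists. BnaA09g18400D, a match of NF-YB2, a subunit of the NF-Y transcription factor that promotes flowering, had 45.6, 38.5 and 58.7 TPM at 72 hai and 3.95, 0.485 and 2.18 TPM at 36 hai (4.07 ± 0.28, limma adjusted p = 7.17e-08). BnaC02g10690D, matched to the Arabidopsis locus AT5G58390 of the peroxidase family, had 33.7, 19.6 and 20.5 TPM at 72 hai and 1.09, 0.0880 and 0.445 TPM at 36 hai (4.06 ± 0.21, adjusted p = 8.13e-09), and was listed at 0 in every earlier library.

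Of the genes with a match, the largest fall was in BnaA05g32640D, annotated in the study as RGL2, a DELLA protein that represses germination. It had 1.15, 0 and 9.80 TPM in C129, C033 and C032 at 72 hai, against 35.3, 43.9 and 63.6 TPM at 36 hai (−4.05 ± 0.59, limma adjusted p = 0.000256). C032, the slowest accession, was highest at both times. The 0 in C033 at 72 hai is uncertain, since all 9 genes of the cytosolic ribosome list were listed at 0 in the same library. With the 6 libraries alone, which leave 2 residual degrees of freedom, its adjusted p was 0.0548. AIL1, an AP2-type factor of the AINTEGUMENTA-LIKE family, fell in BnaC03g31040D, which was listed at 0 in C129 and C033 and had 1.81 TPM in C032 at 72 hai, against 11.8, 4.96 and 10.2 TPM at 36 hai (adjusted p = 1.01e-05). BnaA02g35930D, matched to the borate exporters BOR4 and BOR5, had 0.825, 0 and 0.810 TPM at 72 hai and 16.5, 5.44 and 9.49 TPM at 36 hai (−2.83 ± 0.26, adjusted p = 1.07e-06). The zeros of these genes are uncertain in the same way. In all 3 genes every library at 72 hai was below every library at 36 hai, as was the case for 12.2% of all tested genes. The 3 genes were named for the size of their fall, so that this is a description.

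Mitochondria-matched genes did not share the direction of the plastid-matched genes. Of 11 such genes 7 were tested, and 2 fell and none rose (median log2 change −1.15). Their sum was 334, 1069 and 747 TPM at 72 hai in C129, C033 and C032, against 615, 783 and 886 TPM at 36 hai, so that the groups overlapped. BnaC01g26990D, matched to ATMG00960, was listed at 0 in all libraries at 72 hai and had 5.63, 17.4 and 17.8 TPM at 36 hai (limma adjusted p = 0.00956). This call was lost without C033 or without C032.

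**Figure D4:**
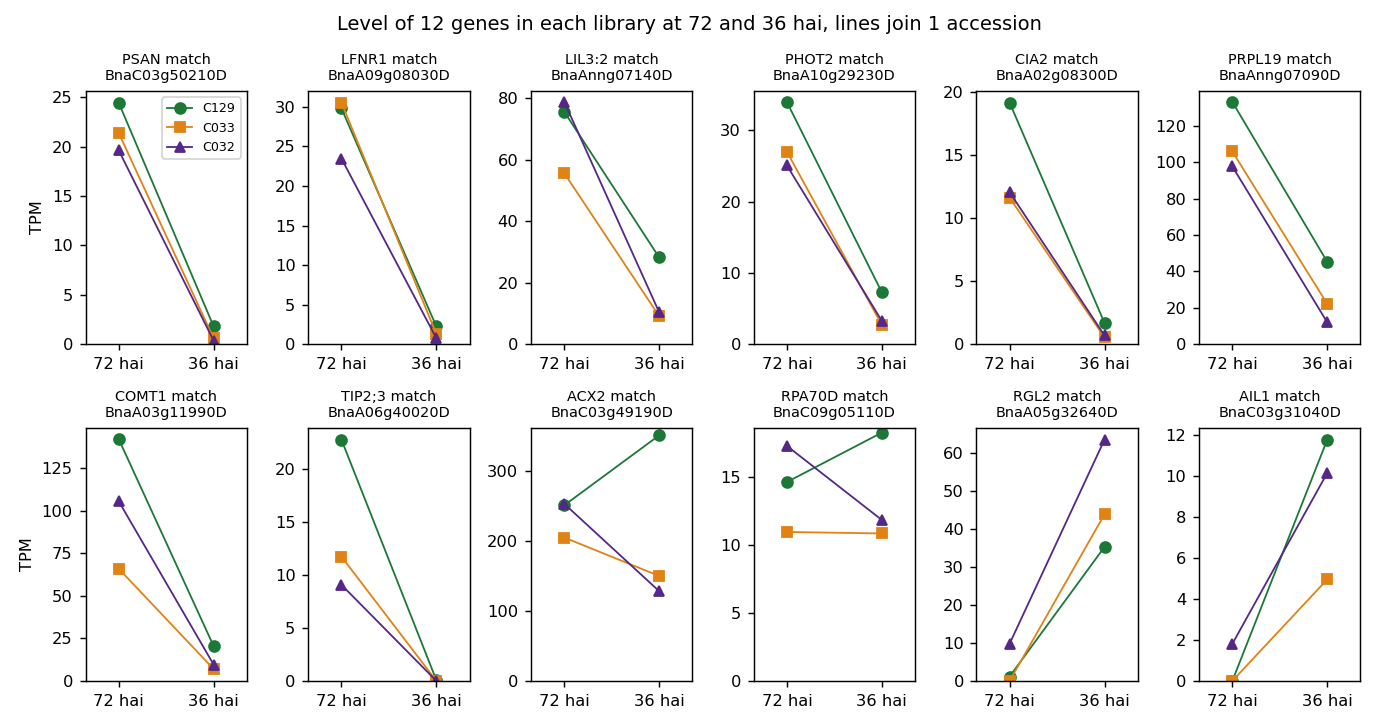
TPM of 12 genes in each library at 72 hai (left of each panel) and 36 hai (right), with lines joining the libraries of C129 (circles), C033 (squares) and C032 (triangles). The first 8 genes were higher at 72 hai in each accession, the ACX2 and RPA70D matches changed direction between accessions, and the RGL2 and AIL1 matches were lower at 72 hai in each accession.

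The largest called rise over all genes was that of the petB match above, and the second largest rise and the largest falls were in genes with no match at hand. BnaC08g43480D had 36.2, 120 and 82.8 TPM at 72 hai and was listed at 0 in the other 12 libraries. BnaC09g50040D fell to 11.9, 3.69 and 5.82 TPM at 72 hai, against 299.9, 108 and 253 TPM at 36 hai (−4.77 ± 0.36, limma adjusted p = 6.33e-07). BnaA10g25100D fell to 5.39, 3.79 and 5.43 TPM at 72 hai, against 135, 91.5 and 183 TPM at 36 hai (−4.51 ± 0.34, adjusted p = 3.48e-07). Both genes were at 1.04 TPM or less up to 2 hai and were highest at 36 hai in each accession. The most abundant coding gene at either time, BnaCnng12640D, was not called, with 5935, 26408 and 10890 TPM at 72 hai and 6209, 35632 and 40784 TPM at 36 hai.

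Rising genes were mostly low through germination. Their median level, over the mean of the 3 accessions, was 0.611 TPM at 0 hai, 0.771 TPM at 2 hai, 1.09 TPM at 12 hai, 1.88 TPM at 36 hai and 8.52 TPM at 72 hai. Over all tested genes the median was 2.53 TPM at 0 hai, 4.12 TPM at 36 hai and 5.50 TPM at 72 hai. In dry seeds 55.9% of the rising genes and 32.5% of all tested genes were under 1 TPM. Of the 9088 rising genes, 4132 (45.5%) had mean levels under 1 TPM at 0, 2 and 12 hai, and 2287 of these (25.2% of all rising genes) were under 1 TPM at 36 hai too. These 2287 genes had a median of 3.18 TPM at 72 hai, and 191 of them reached 10 TPM. Another 717 rising genes (7.89%) had a higher mean level in dry seeds than at 72 hai, so that their rise was a partial return. Among all tested genes the highest mean level was at 72 hai for 41.9%.

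Falling genes were most often highest at 36 hai. Their highest mean level was at 36 hai for 1679 genes (65.4%), at 12 hai for 620 (24.2%) and in dry seeds for 146 (5.69%). Over all tested genes these shares were 18.9%, 23.7% and 6.65%, so that the shares at 12 hai and in dry seeds were near those of all tested genes. The median level of the falling genes was 8.07 TPM in dry seeds, 18.4 TPM at 36 hai and 5.98 TPM at 72 hai. At 72 hai 1255 of the 2567 genes (48.9%) were still above their dry seed level. The levels at 36 and 72 hai chose these genes, and those at 0, 2 and 12 hai entered the same fit and the minimum level, so that these courses are a description.

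**Figure D5:**
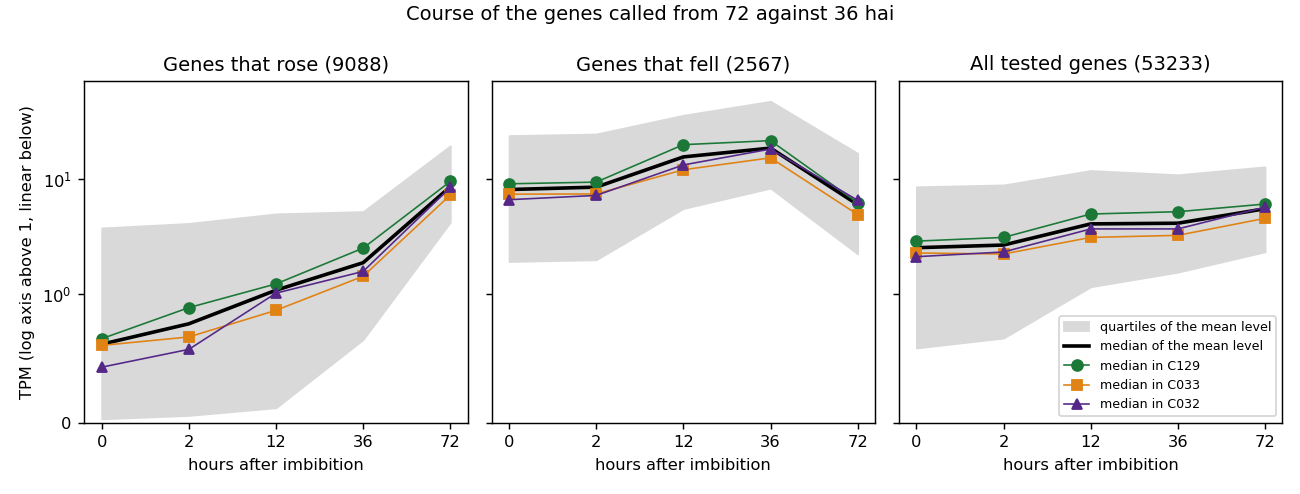
Median TPM (log axis above 1, linear below) over 5 times of imbibition for genes that rose, genes that fell and all tested genes, with the quartiles of the mean level over accessions in grey and the median in each accession as points. Rising genes have a median of 1.88 TPM at 36 hai and 8.52 TPM at 72 hai, and falling genes 18.4 and 5.98 TPM.

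The step involved both subgenomes to a like extent. On the A subgenome, from Brassica rapa, 17.7% of 25477 tested genes rose and 5.05% fell, and on the C subgenome, from Brassica oleracea, 16.5% of 27591 rose and 4.59% fell. By chromosome the rising share ran from 14.6% on C03 to 19.9% on A04. Genes are not independent replicates and these shares were not tested. The gene models of rising genes had a median length of 1248 bases, those of falling genes 1050 and all tested genes 1323, with a median of 4 exons in each set.

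Calls of copies of 1 Arabidopsis locus did not oppose each other. Among 480 nuclear loci with at least 2 tested copies, all copies rose at 85 loci and all fell at 1. At 81 loci some copies were called and others were not, and at 313 none was called. At 0 loci was 1 copy called as rising and another as falling. Copies that were not called could still point the other way: the MYB34 copy BnaA09g05480D had 12.5, 3.15 and 7.93 TPM at 72 hai and 15.9, 6.03 and 9.31 TPM at 36 hai, whereas the copy BnaAnng06640D rose.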

How the data were processed

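RNA levels of 15 libraries of rapeseed seeds and seedlings were used, 1 for each of 3 accessions at 0, 2, 12, 36 and 72 hai. The authors mapped 100-bp reads with HISAT and quantified genes with StringTie, whose versions are not given in the sources used here. The deposited TPM were computed by the authors and are scaled over coding and non-coding genes together. The coverage values deposited beside them are the signal as mean read depth per gene, used here only for depth and for the non-coding share.

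Coding genes were fitted with limma 3.58.1 in R 4.3.3 (trend and robust options) on log2(TPM + 1), for genes that reached 1 TPM in 3 or more libraries, over all 15 libraries with time and accession as terms (8 residual degrees of freedom). p-values were adjusted by Benjamini-Hochberg over all 53233 genes. The fit was tested on simulated data. Of 100 genes changed by 1.5 on the log2 scale 81% were recovered, and of 100 changed by 2 it was 96%. There were 11 false calls among 49548 genes. These rates describe the simulated data alone and are not error rates of the calls made here. In the libraries the calls of a list could rest on 1 accession: the plastid gene expression list had 20 called genes, and 0 without C032. TPM keeps no counts, so that no count model was used. Pairs come from the accession named in the labels: deviations from the time mean correlated across genes by 0.62, 0.68 and 0.63 between the libraries of 1 accession. No permutation test over 3 pairs can go below 0.25 (two-sided), so none is given. The error is the spread that time and accession leave unexplained, pooled over the libraries of all times. For genes near 0 at the early times it can understate the spread of the change among accessions. BnaC08g43480D was listed at 0 in every library before 72 hai. Its log2 changes were 5.22, 6.92 and 6.39 in C129, C033 and C032, beside an SE of 0.28.

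The genes and lists were chosen with earlier results of these data known. Named genes were the 4 most abundant members of each list, the 2 largest called changes of a list in each direction, the 8 largest rises and falls and the 8 largest gains and losses in TPM among called genes with a match, and the 2 largest rises and falls of all. Loci given as a sum over copies, the runs, BnaC09g29230D and BnaCnng12640D were chosen after their values were seen. Arabidopsis matches came from a supplementary table of the study, and none of its values were used. Symbols were assigned from general knowledge of Arabidopsis. The alternatives were a pseudocount of 0.1 or 0.01, a minimum of 5 TPM or none, scaling by the median of ratios, coding totals made equal, the 6 libraries alone, no accession term, and each accession left out. Another, chosen after seeing the data, left out organelle-matched genes and their runs and made the totals of the others equal. Columns of gene length and exon number were used as deposited. Non-coding genes were not analysed here beyond their share of coverage. Another plastid locus of the gene expression list is counted there but not reported here by name.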

Additional observations from a re-analysis of the deposited data

Results flagged for a closer look

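In 3 lists the summed TPM moved in opposite directions in different accessions. These differences rest on 1 library per accession and time and were not tested. The cell cycle list at 72 hai was at 0.836 of its level at 36 hai in C129, at 1.16 in C033 and at 1.70 in C032. For the reserve mobilisation list C129 was at 0.982, C033 at 1.67 and C032 at 2.31. For the seed maturation list C129 was at 1.07, whereas C033 was at 0.0687 and C032 at 0.220, from sums of at most 25.5 TPM. Once coding totals were made equal, the reserve list was at 1.01 in C129 and the cell cycle list at 0.913 in C033.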

How the results depend on the processing

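No called gene among those named changed direction under any alternative, while 1023 of their values kept the call or its absence, 108 lost it and 9 gained it. Rising genes numbered 5722 with a minimum of 5 TPM, where 33546 genes were tested. Falling genes numbered 4043 once coding totals were made equal. Without the replicate block of accession, 8530 genes rose and 2247 fell. Leaving out 1 accession gave 6403 to 7916 rising and 2024 to 3026 falling genes, and medians of 0.94 to 0.98 for the light and clock list. With organelle-matched genes and their runs left out, 8812 genes rose and 3684 fell (70.5% rising). The medians of the 7 plastid, photosynthesis and light lists stayed between 0.94 and 2.17 under every alternative that could test them, which leaves out organelle-matched genes for the plastid lists. The medians of small or low lists spread more, from −0.41 to 1.17 for root, −0.24 to 1.22 for defence and −3.83 to −0.72 for the cytosolic ribosome. The cause was not tested. Depth (19.8 M coding reads in C033 at 36 hai) limits genes near 1 TPM, and 47807 coding genes were not tested.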
